A study of Mus musculus with 20 samples.

Results

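The regions described here are distal stretches of open chromatin that carried a peak of H3K27ac, the acetylation of histone H3 at lysine 27, in mTOR-knockout hematopoietic stem cells (HSC) and none in control HSC. They were chosen by 4 conditions on the deposited peak lists. A knockout H3K27ac peak had to overlap no control H3K27ac peak, overlap no H3K4me3 peak of either genotype, lie more than 1 kb from both ends of every protein-coding gene, and overlap an ATAC-seq peak of knockout library 2 and of control library 2. Of 20036 knockout H3K27ac peaks, 4363 met all of them. The mark in both genotypes, the distance and the openness in those libraries were therefore fixed by the choice and are not findings.

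HSC were sorted from adult mice that had all been given poly(I:C), the inducer of the Mx1 promoter that drives Cre. Knockout mice (KO) were Mx1-Cre+/-;mTORflox/flox. A further group, called KO MycHet here, was Mx1-Cre+/-;mTORflox/flox;c-Myc+/flox and so also carried 1 floxed c-Myc allele. Control mice (WT) were Mx1-Cre-/-;mTORflox/flox, with the floxed alleles and poly(I:C) but no Cre. Mx1-Cre acts in many interferon-responsive cells and not in HSC alone. H3K27ac, H3K4me3 (a mark of promoters) and the transcription factor MYC were profiled by ChIP-seq in 1 KO and 1 WT library each, and open chromatin by ATAC-seq from 50000 cells in each of 2 KO MycHet, 2 KO and 2 WT libraries. MYC and the histone marks were not profiled in KO MycHet cells. The labels do not say whether animals were pooled or whether ATAC-seq libraries of 1 group came from separate animals.

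Enhancers are stretches of DNA away from gene starts that raise the transcription of genes on the same chromosome. They are bound by transcription factors, which leave them accessible to the transposase used in ATAC-seq, and when active their flanking nucleosomes carry H3K27ac but little H3K4me3. Open distal sites without H3K27ac are commonly described as primed or poised. MYC binds mostly at active promoters and, when abundant, also at active enhancers. mTOR is a kinase that couples nutrients and growth factors to protein synthesis and growth.

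Before any comparison, the lists differed in length and width. The H3K27ac peaks had a median width of 1237 bp in KO and 333 bp in WT and covered 31.4 Mb in KO, against 4.71 Mb in WT. MYC peaks numbered 22086 in KO and 8774 in WT. ATAC-seq lists of replicate 1 were short, with 19174 peaks in KO and 17303 in WT, whereas those of replicate 2 held 72149 in KO and 66531 in WT, and the KO MycHet lists held 47214 and 53722. Read numbers are not part of the lists, which leaves every library's depth unknown. No deposited peak score was below 50, and a region called absent is one with no peak above that floor. Mtor had a peak at its lower end in none of the 7 KO and KO MycHet libraries and in all 5 WT libraries. An H3K4me3 peak together with an ATAC-seq peak at a gene end was found for 23 of 44 genes listed as HSC transcription factors in KO and 26 of 44 in WT, and for 20 of 31 HSC surface and niche genes in KO and 22 of 31 in WT. Genes listed for other cells had both too: 15 of 31 myeloid genes in KO and 16 of 31 in WT, 11 of 24 megakaryocyte genes in KO and 12 of 24 in WT, and 9 of 22 stromal and endothelial genes in each. The counts were 7 of 24 erythroid genes in KO and 10 of 24 in WT, 7 of 26 B cell genes in KO and 8 of 26 in WT, and 10 of 34 T and NK cell genes in KO and 9 of 34 in WT. Gata2, Meis1, Erg and Tal1, which are HSC regulators, had no H3K4me3 peak at an end in either genotype. All libraries are from bulk cells, so a mark in more cells and a stronger mark per cell cannot be told apart.

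The rule left out peaks at coding gene ends or with H3K4me3, so few annotated gene starts could remain. Of 4363, 125 (2.87%) overlapped 1 of 32619 promoter windows (250 bp before to 50 bp after a start). For distal open KO H3K27ac peaks that overlap a WT H3K27ac peak, the share was 4.20%. Whole windows numbered 95, held by 90 of the 4363 regions. Of these 95 windows, 77 belonged to lncRNA genes and 18 to protein-coding genes whose start lies inside the annotated gene body. Sequence was read only for these windows, which are RefSeq sequences of assembly GRCm38.p6 (mm10), 5′ to 3′ on the gene's strand. The 7 printed below were taken by score: the highest-scoring window, the highest with a MYC peak in KO on the window itself, the highest of a protein-coding gene, and the highest with each of 4 motifs. Capitals mark matches on either strand to 4 motifs. CACGTG is the E-box that MYC binds, GATAAG is a motif of GATA factors, TGTGGT of RUNX factors and AGGAAG of ETS factors. A match on the opposite strand appears as its reverse complement, for example CTTCCT for the ETS motif.

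Gm35413, chr13:5803106-5803405, minus strand, within the region nearest to Klf6: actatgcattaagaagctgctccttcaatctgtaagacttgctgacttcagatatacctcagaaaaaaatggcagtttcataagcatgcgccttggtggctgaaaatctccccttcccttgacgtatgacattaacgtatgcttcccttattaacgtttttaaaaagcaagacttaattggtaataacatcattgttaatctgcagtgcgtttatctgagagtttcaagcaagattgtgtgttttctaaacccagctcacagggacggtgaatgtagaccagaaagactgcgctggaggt
Gm36496, chr12:25190795-25191094, minus strand, within a region nearest to Id2: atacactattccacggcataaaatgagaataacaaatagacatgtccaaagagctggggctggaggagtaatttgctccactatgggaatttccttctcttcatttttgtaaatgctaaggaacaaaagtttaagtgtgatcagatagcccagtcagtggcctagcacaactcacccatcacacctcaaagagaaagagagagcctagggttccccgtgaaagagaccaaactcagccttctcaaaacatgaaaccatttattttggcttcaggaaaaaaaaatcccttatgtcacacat
Adcy7, chr8:88288816-88289115, plus strand, an internal start of the adenylate cyclase gene Adcy7: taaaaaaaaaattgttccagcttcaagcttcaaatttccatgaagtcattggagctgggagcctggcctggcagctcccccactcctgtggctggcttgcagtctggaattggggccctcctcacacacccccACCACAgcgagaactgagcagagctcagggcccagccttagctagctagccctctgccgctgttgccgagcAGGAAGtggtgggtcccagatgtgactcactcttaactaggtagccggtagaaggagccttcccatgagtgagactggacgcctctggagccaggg
Gm30561, chr11:79305269-79305568, plus strand, within the region nearest to Nf1: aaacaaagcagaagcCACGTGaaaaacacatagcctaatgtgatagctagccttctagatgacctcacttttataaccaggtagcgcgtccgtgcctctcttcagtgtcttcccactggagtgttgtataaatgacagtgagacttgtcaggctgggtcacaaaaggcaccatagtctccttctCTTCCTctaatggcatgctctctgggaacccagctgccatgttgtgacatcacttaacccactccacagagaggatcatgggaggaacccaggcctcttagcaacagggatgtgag
2310040G24Rik, chr6:86488178-86488477, minus strand: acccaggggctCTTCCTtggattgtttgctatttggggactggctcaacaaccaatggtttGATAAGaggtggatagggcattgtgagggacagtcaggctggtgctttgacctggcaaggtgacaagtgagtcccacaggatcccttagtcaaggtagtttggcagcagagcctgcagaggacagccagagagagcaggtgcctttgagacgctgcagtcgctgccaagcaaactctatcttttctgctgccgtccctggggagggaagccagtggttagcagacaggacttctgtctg
Gm33951, chr19:41445033-41445332, minus strand, within a region nearest to Lcor: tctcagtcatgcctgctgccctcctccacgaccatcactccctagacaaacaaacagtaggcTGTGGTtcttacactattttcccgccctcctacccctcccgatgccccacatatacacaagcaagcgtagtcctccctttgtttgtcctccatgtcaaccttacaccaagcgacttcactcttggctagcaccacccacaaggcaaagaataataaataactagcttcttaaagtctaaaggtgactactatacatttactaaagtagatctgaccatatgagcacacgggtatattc
Gm42354, chr4:149790441-149790740, plus strand, within a region nearest to Slc25a33: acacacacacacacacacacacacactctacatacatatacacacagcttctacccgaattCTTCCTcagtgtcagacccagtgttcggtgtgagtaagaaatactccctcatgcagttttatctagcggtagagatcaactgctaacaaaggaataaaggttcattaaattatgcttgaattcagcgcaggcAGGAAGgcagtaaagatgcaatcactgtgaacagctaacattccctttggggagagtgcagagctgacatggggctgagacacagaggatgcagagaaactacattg

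Of the windows printed, 4 were picked for a motif, so its presence there is no result. The windows of Gm35413, in a region with an H3K27ac score of 332.61, and of Gm36496, in a region with a score of 271.59, held none of the 4 motifs. The Gm36496 window nevertheless lay under a MYC peak in both genotypes, with scores of 56.54 in KO and 88.22 in WT. The Adcy7 window held TGTGGT and AGGAAG and lay under a KO MYC peak of score 60.46 with no WT MYC peak. Over the 95 whole windows, AGGAAG was present in 54.7% (95% CI 44.2 to 65.0), against 35.2% of all 32619 windows. TGTGGT was present in 28.4% (19.6 to 38.6), against 16.6% of all windows, and TGANTCA, the AP-1 motif, in 15.8% (9.12 to 24.7), against 7.85%. GATAAG stood at 10.5% (5.16 to 18.5), against 7.47%, and CACGTG at 8.42% (3.71 to 15.9), against 7.20%, and both intervals include the share of all windows. Among lncRNA windows alone, AGGAAG was in 59.7% of 77 (47.9 to 70.8), against 37.1% of 11574, while the interval for TGTGGT, 18.8 to 40.0%, included the 20.1% of all lncRNA windows and that for TGANTCA, 8.32 to 25.6%, the 9.31% of all lncRNA windows. A further 5 motifs had intervals that included the share of all windows: CAGCTG of bHLH factors (14.7%, against 16.4%), TTGCNNAA of C/EBP factors (14.7%, against 10.9%), TGACGT of CREB (3.16%, against 7.56%), CCACNAG of the CTCF core (12.6%, against 15.1%) and the interferon element (3.16%, against 3.46%). Intervals are exact Clopper-Pearson intervals and cover counting error only, here and below. The median G+C content was 47.7% in the 95 windows and 53.0% in all windows, and its part in the motif shares was not tested. The windows sample 2.87% of the regions at most and do not stand for the rest.

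The regions followed from the KO list by these steps. No WT H3K27ac peak lay on 15145 of the 20036 KO peaks, so 75.6% of all KO H3K27ac peaks were without a WT peak before any other condition. Of these, 8212 also lacked H3K4me3 and 7816 were distal. Among the 7816, 4363 were open in both replicate 2 libraries, 396 in KO 2 alone, 357 in WT 2 alone and 2700 in neither. The comparison class, distal open KO H3K27ac peaks that do overlap a WT H3K27ac peak, held 904 regions and is called the shared class. Under the mirrored rule, 421 WT H3K27ac peaks were distal, open and without a KO peak.

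The regions were weaker and narrower in H3K27ac than the shared class, as the plot of score and distance shows. Their KO H3K27ac score had a median of 79.8 (quartiles 61.7 and 113.2, highest 483.42), against 139.9 in the shared class. Their median width was 1125 bp, against 2024.5 bp. A score of 200 or more was reached by 191 regions, and 497 scored under 55, close to the floor of 50. The nearest WT H3K27ac peak lay a median of 46.5 kb away (quartiles 17.8 and 109.2), 45 regions had one within 1 kb, and the closest lay 4 bp away. At the distance threshold, the regions just inside it lay 1002 bp from Wdr82 (score 60.3), 1015 bp from Ski (50.86) and 1017 bp from Cxcl3 (163.48). Peaks that met all other conditions and fell just short lay 985 bp from Ranbp10 (92.02), 978 bp from AB124611 (66.95) and 972 bp from Prkcd (101.4). These scores belong to the list the regions were chosen from and are given as a description.

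**Figure D1:**
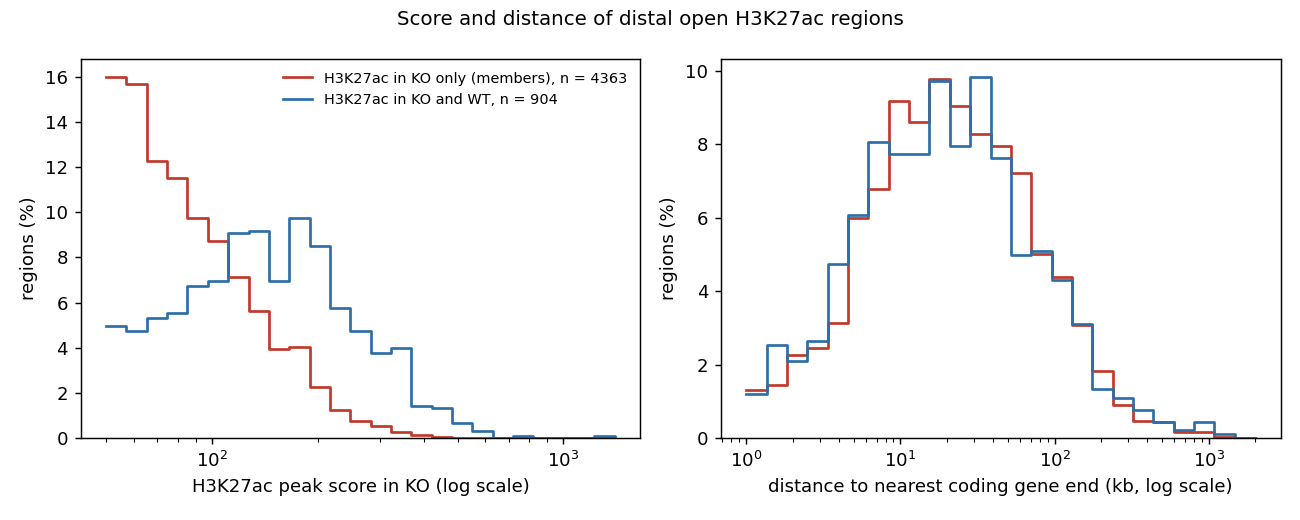
Share of regions (%) by H3K27ac peak score in KO (left, log axis) and by distance to the nearest protein-coding gene end in kb (right, log axis), for the 4363 regions with H3K27ac in KO only and the 904 of the shared class. The scores of the KO-only regions pile up near the floor of 50 (median 79.8, against 139.9), while the distances of both classes lie over each other (medians 20.4 and 19.2 kb).

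Position relative to genes was close to that of the shared class, with overlapping intervals. The median distance to the nearest protein-coding gene end was 20.4 kb (95% CI 19.5 to 21.3; range 1.002 to 1252.4 kb), against 19.2 kb (17.2 to 21.2) in the shared class. Of the regions, 514 lay within 5 kb of an end, 735 at 5 to 10 kb, 2038 at 10 to 50 kb, 601 at 50 to 100 kb and 475 farther away. A protein-coding gene body contained 55.2% of the regions (53.7 to 56.7) and 55.5% of the shared class (52.2 to 58.8). By chromosome, they made up 17.4% to 28.3% of the KO H3K27ac peaks on the autosomes and 10.7% (48 of 447) on X. Most stood alone: when regions within 12.5 kb of each other were joined, 3615 were single, 315 groups held 2, 34 held 3 and 4 held 4.

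The 20 regions with the highest score ran from 329.27 to 483.42, and all overlapped ATAC-seq peaks in KO 2 and WT 2 by the rule. Of these 20, 17 were open in both KO MycHet libraries, 13 in KO 1 and 8 in WT 1, 8 had a MYC peak in KO and 6 in WT, and 9 lay inside a gene. The highest, 483.42, lay on chromosome 10 from 82922737 to 82924819, 25.013 kb from Txnrd1, which encodes cytosolic thioredoxin reductase. Its ATAC-seq scores were 90.28 and 155.75 in KO MycHet 1 and 2, 206.12 in KO 2 and 180.95 in WT 2, with no peak in KO 1 or WT 1 and no MYC peak. The second, 458.26, lay in Kalrn, a guanine nucleotide exchange factor of small GTPases, 141.6 kb from its nearer end. Its ATAC-seq scores were low, 61.86 in KO MycHet 1, 84.8 in KO 2 and 67.56 in WT 2, and the other 3 libraries had no peak. The third, 433.56, lay 12.5 kb from Tas2r126, a taste receptor gene. The fourth, 431.77, lay inside Smyd3, a SET-domain methyltransferase, on chromosome 1 from 179162607 to 179164521, 674.996 kb from any WT H3K27ac peak. Unlike the first 3, it carried MYC in both genotypes, with scores of 439.61 in KO and 323.26 in WT. High H3K27ac scores thus went with very different ATAC-seq scores.

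Of the remaining 16, 4 are given here with values, chosen after these were seen. Klf6, a zinc-finger factor, had a region of 4425 bp and score 332.61 at 56.3 kb, open in both KO MycHet libraries (238.38 and 148.6), KO 1 (70.97), KO 2 (554.51) and WT 2 (435.64), without MYC in either genotype. Il1rap, the accessory chain of the interleukin 1 receptor, held a region of score 358.46 within its body. Prkcq, which encodes protein kinase C theta, had 1 of score 361.71 at 30.2 kb with MYC scores of 137.62 in KO and 95.44 in WT. Zfp831 held 1 of score 372.86 whose ATAC-seq scores were among the highest of the 20: 730.88 and 865.07 in KO MycHet, 210.62 and 1315.66 in KO, and 245.19 and 1420.52 in WT. The remaining regions of the 20 were nearest to Pabpc1l, Nanos3, Clstn3, Rnf217, Tex35, Osbpl1a, Agps, Mapk4, Fndc3b, Gvin1, Tnfrsf21 and Hrob.

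MYC peaks were found on fewer of these regions than on the shared class, in either genotype. In KO, 937 of 4363 had a MYC peak (21.5%, 95% CI 20.3 to 22.7), against 43.6% (40.3 to 46.9) of the shared class. Among all 20036 KO H3K27ac peaks, which include promoters, it was 34.2%. In WT, 631 of the 4363 had one (14.5%, 13.4 to 15.5), against 41.4% (38.1 to 44.7) of the shared class and 19.7% of all KO H3K27ac peaks, promoters included. Both genotypes had MYC on 366 regions, KO alone on 571, WT alone on 265 and neither on 3161. In the shared class the same counts were 258, 136, 116 and 394 of 904. The KO-alone count of 571 stands beside a KO MYC list 22086 peaks long and a WT list of 8774, and no test between genotypes was possible with 1 library each. All classes share the same libraries, so the intervals between classes describe these libraries and are not replicate error. The regions without MYC had the lowest ATAC-seq scores, with a median of 218.4 in KO 2, against 332.3 where MYC was in KO alone, 363.5 where it was in WT alone and 502.9 where it was in both.

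Where both genotypes had a MYC peak, its score was higher in KO in 197 of the 366 regions (53.8%, 48.6 to 59.0), with medians of 90.8 in KO and 86.1 in WT. Scores come from separate lists, and whether they are on 1 scale is not stated. Regions with MYC in KO alone had a median KO MYC score of 70.7, and those with MYC in WT alone a median WT MYC score of 69.1. Most MYC peaks on these regions were therefore low: raising the minimum MYC score from 50 to 100 left 6.60% of regions with MYC in KO and 4.01% in WT. Low scores were not particular to these regions, as the whole MYC lists had medians of 73.06 in KO and 68.35 in WT. The highest MYC score on each region that had a peak had medians of 77.3 in KO and 76.9 in WT. The 3453 KO-only regions that were not open in both replicate 2 libraries had MYC on 24.0% in KO (22.5 to 25.4) and on 13.1% in WT (11.95 to 14.2). Their KO MYC peaks had a higher median score, 107.5 (100.9 to 114.4), against 77.3 (75 to 79.9) in the open regions.

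The highest KO MYC score, 608.39, was on a region of 3020 bp on chromosome 12 from 8431446 to 8434465, 63.2 kb from Rhob, which encodes a small GTPase, and WT had no MYC peak there. Its ATAC-seq scores were 84.39 and 143.6 in KO MycHet, 293.93 in KO 2 and 174.96 in WT 2. A region 4.31 kb from Gpam, the mitochondrial enzyme of glycerolipid synthesis, had a KO MYC score of 504.63 and no WT MYC peak. Cish, a feedback inhibitor of STAT5 signalling, had a region 3.37 kb away with MYC scores of 473.98 in KO and 66.83 in WT. The others of the 8 highest were in Spag1 (567.81 in KO and 270.28 in WT), Ankrd61 (473.07 and 153.27), Smyd3 (439.61 and 323.26) and Itsn1 (382.37 and 59.46) and near Mcfd2 (429.07 and 242.39). Among the highest WT scores were 334.66 in Cuedc1, 323.26 in Smyd3, 270.28 in Spag1 and 261.49 near Uaca. KO scores on these regions were 284.23 in Cuedc1, 439.61 in Smyd3, 567.81 in Spag1 and 123.99 near Uaca. These regions were ranked by the scores quoted, so their heights are a description.

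Since wider regions can overlap more peaks, the classes were also compared on 1 kind of footprint, the ATAC-seq peak of KO 2. Of 35624 distal KO 2 peaks without H3K4me3 that were also open in WT 2, 4588 (12.9%) lay in the KO-only regions, 1022 in the shared class and 29367 touched no H3K27ac peak. MYC in KO was found on 19.6% of the sites in KO-only regions (18.5 to 20.8), 37.5% of those in the shared class (34.5 to 40.5) and 6.32% of those with no H3K27ac (6.05 to 6.61). MYC in WT was found on 13.6% (12.6 to 14.6), 36.4% (33.4 to 39.4) and 2.79% (2.60 to 2.98) of them. WT MYC was thus on sites in KO-only regions more often than on open sites without H3K27ac. Neither the KO-only regions nor the sites without H3K27ac overlapped a WT H3K27ac peak. A site that reached beyond its KO-only region was not checked for one. The sites also differed in openness, with median KO 2 scores of 236.2, 333.1 and 127.9. Their median widths still differed in the same order, at 678, 800 and 505 bp. The part of width in the MYC shares of the sites was not tested.

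**Figure D2:**
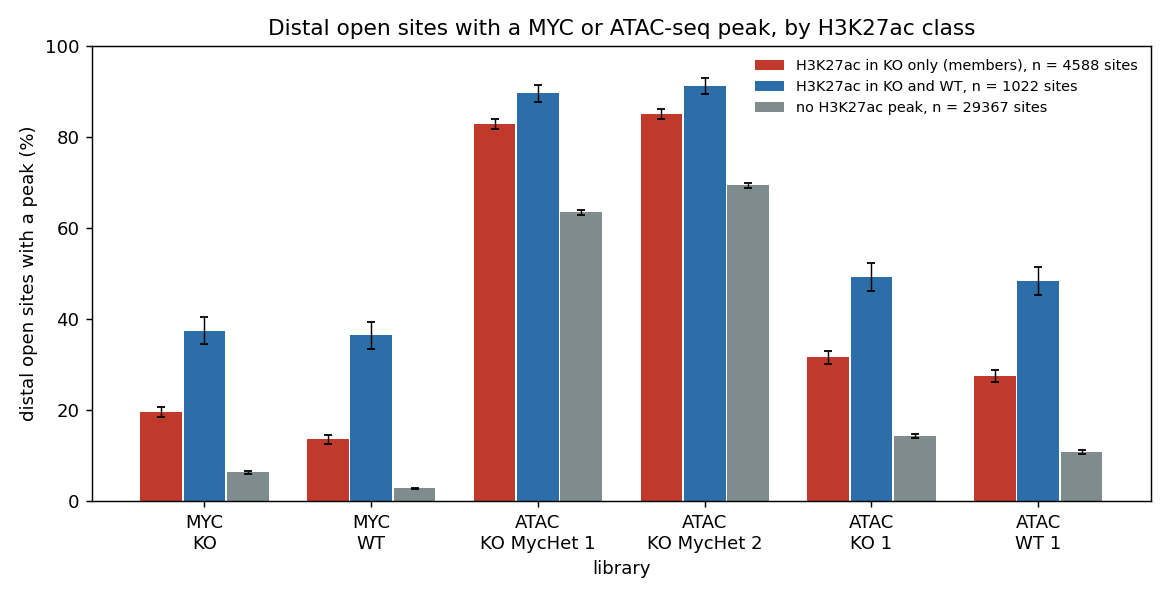
Share (%) of distal open sites that overlap a peak of each library named on the horizontal axis. Each site is an ATAC-seq peak of KO 2 shared with WT 2. The classes are 4588 sites in regions with H3K27ac in KO only, 1022 in regions with H3K27ac in KO and WT, and 29367 with no H3K27ac peak. Bars give the share and error bars the exact 95% interval; in all 6 libraries the KO-only class lies between the other classes.

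Within equal ranges of openness the order remained for MYC at the upper end. Sites were divided by the quartiles of the KO 2 score over all 35624 (87.53, 140.485 and 244.33). In the most open quartile, MYC in KO was on 29.5% of sites in KO-only regions (27.6 to 31.4), 48.7% of the shared class (44.8 to 52.6) and 14.3% of sites without H3K27ac (13.4 to 15.3). In the least open quartile it was on 9.96% (7.51 to 12.9), 10.7% (5.02 to 19.4) and 3.15% (2.79 to 3.55), so the first 2 classes had overlapping intervals there. MYC in WT in the most open quartile was on 21.9% (20.2 to 23.6), 47.9% (44.1 to 51.8) and 8.28% (7.58 to 9.02). MYC also followed the H3K27ac score of the regions themselves: in KO it was on 17.2% of regions scoring 50 to 75, 20.02% at 75 to 100, 26.02% at 100 to 150, 30.0% at 150 to 200 and 35.6% at 200 or more. The median width over these bins was 799, 1113, 1522, 1943 and 2113 bp, and its part in the MYC shares was not tested. At 200 or more, the shared class had MYC in KO on 52.5% (46.0 to 59.1), against 35.6% (28.8 to 42.8) of the KO-only regions.

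**Figure D3:**
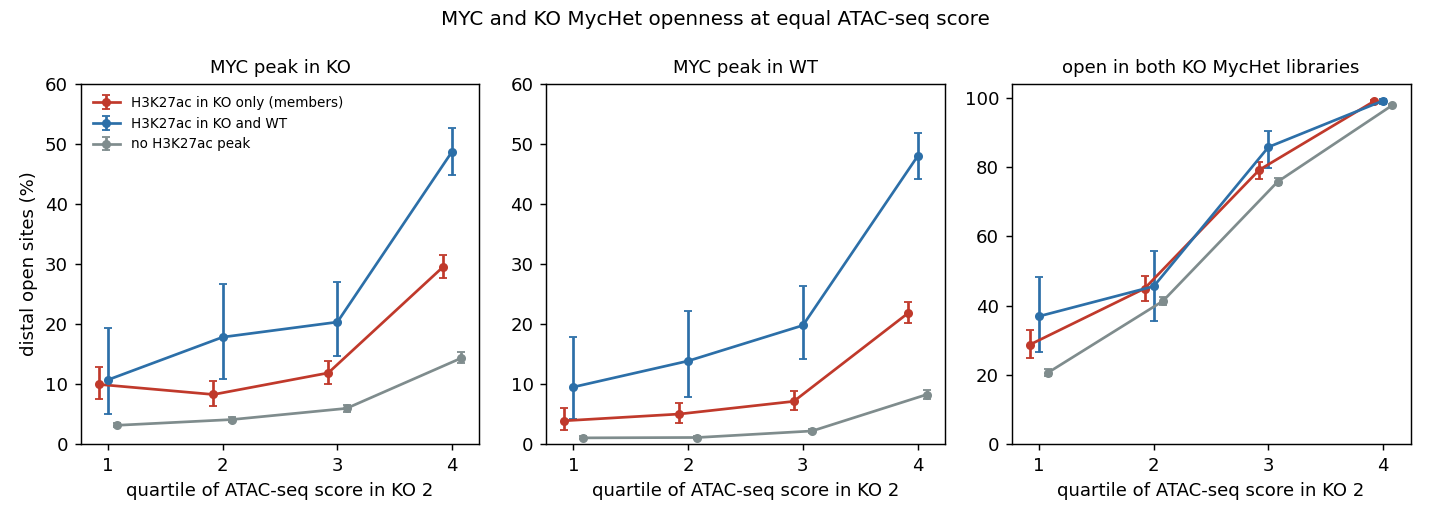
Share (%) of distal open sites with a MYC peak in KO (left), with a MYC peak in WT (middle) and open in both KO MycHet libraries (right), by quartile of the ATAC-seq score in KO 2 (1 is least open), for the same 3 classes of site. Points give the share and bars the exact 95% interval; MYC shares stay apart in the most open quartile (29.5%, 48.7% and 14.3% in KO), while KO MycHet openness was 28.7%, 36.9% and 20.7% in quartile 1 and 98.9%, 99.1% and 97.8% in quartile 4.

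Most regions were open in KO MycHet cells too. KO MycHet 1 had an ATAC-seq peak on 84.2% of them (83.1 to 85.3) and KO MycHet 2 on 86.6% (85.5 to 87.6). Both had one on 3463 (79.4%, 78.1 to 80.6), 1 of the 2 on 525 and neither on 375 (8.60%). Among all KO H3K27ac peaks, promoters included, 72% were open in both, and in the shared class 91.6% (89.6 to 93.3). On the common footprint, 77.6% of sites in KO-only regions were open in both (76.3 to 78.8), against 86.3% of the shared class and 55.4% of sites without H3K27ac. By quartile of openness from least to most open, the sites in KO-only regions were open in both at 28.7%, 44.9%, 79.1% and 98.9%, and those without H3K27ac at 20.7%, 41.3%, 75.7% and 97.8%. The intervals of these classes overlapped in quartiles 2 and 3. They did not in quartile 1, where they ran from 24.8 to 32.8% and from 19.8 to 21.6%, or in quartile 4, where they ran from 98.4 to 99.3% and from 97.4 to 98.1%.

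The 375 regions with no KO MycHet peak were among the least open. Their median ATAC-seq score was 96.3 in KO 2 (89.8 to 101.2) and 99.8 in WT 2, against 307.4 in KO 2 and 283.2 in WT 2 for the 3463 open in both KO MycHet libraries. MYC was on 6.13% of them in KO (3.93 to 9.06) and 2.67% in WT, against 24.7% in KO (23.2 to 26.1) and 16.9% in WT. Their H3K27ac score differed less, with a median of 71.9 against 81.9. The highest-scoring of the 375 were near Ppm1h (H3K27ac score 241.56), in Ctbp2 (240.93), a transcriptional corepressor, in Trps1 (221.16), a GATA-type repressor, near Ola1 (216.68) and in Zswim4 (215.0). Their ATAC-seq scores ran from 54.14 to 141.63 in KO 2 and from 65.16 to 215.09 in WT 2. None had a KO MYC peak, and Zswim4 alone had a WT MYC peak (78.51).

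Scores of the regions in KO MycHet lay below those of KO 2, a library the rule used, and above those of KO 1. The median score where a peak was present was 161.9 in KO MycHet 1 and 183.1 in KO MycHet 2, against 76.3 in KO 1 and 251.4 in KO 2, so the direction depended on the KO library. KO MycHet 1 was higher than KO 2 in 7.41% of the 3673 regions open in both, and KO MycHet 2 in 11.5% of 3778. In the shared class the corresponding shares were 3.54% and 7.33%. Counted over single ATAC-seq peaks of KO 2, they were 10.5% and 13.5% at sites in KO-only regions. At open sites without H3K27ac they were 14.0% and 18.1% by that count. The rule required a peak in both KO 2 and WT 2 and so left out regions open in 1 of them. As a description, KO 2 was higher than WT 2 in 2298 of 4363 (52.7%), with medians of 251.4 in KO 2 and 234.2 in WT 2. A two-sided exact permutation test of 2 libraries against 2 cannot go below 0.333, and no test between KO MycHet, KO and WT was made.

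The replicate 1 ATAC-seq libraries of KO and WT were not used by the rule. KO 1 had a peak on 32.1% of the regions (30.7 to 33.5) and WT 1 on 28.4% (27.02 to 29.7). In the shared class these were 55.6% in KO 1 and 54.6% in WT 1. Both KO 1 and WT 1 were open on 781 regions, KO 1 alone on 620, WT 1 alone on 456 and neither on 2506. Of the 781, 776 were open in all 6 libraries. The regions with both were more often bound by MYC, at 38.7% in KO and 32.5% in WT. Replicate 1 lists are short in both genotypes, and a missing peak there is a missing call and not closed chromatin.

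The regions were spread over 2961 nearest genes, 13.7% of the 21631 protein-coding genes. Of these genes, 2083 had 1 region, 565 had 2, 189 had 3, 66 had 4, 39 had 5 and 13 had 6. Usp6nl and Dym had 7 each, and Prex1, Cited2, Cradd and Zfp386 had 8. Among those with 6 were Runx1, which encodes a founder of the HSC programme, Itga4, an integrin of HSC homing, the deacetylase gene Hdac4, Smad3, a mediator of TGF-beta signalling, Lrrc1, Abcc4 and Pced1b. A count by nearest gene follows the size of a gene's neighbourhood as well as its activity.

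The 8 regions of Prex1, a Rac guanine nucleotide exchange factor of myeloid cells, lay 5.33 to 118.8 kb from its ends on chromosome 2, 2 of them in the gene, which spans 166566345 to 166713832. Their H3K27ac scores ran from 50.27 to 146.74. KO MycHet 1 had an ATAC-seq peak on 6 and KO MycHet 2 on all 8, and MYC was on 4 in KO and 2 in WT. The region of 146.74 had MYC at 60.37 in KO and none in WT, and ATAC-seq scores of 367.56 and 331.34 in KO MycHet, 55.18 and 527.62 in KO, and 70.13 and 527.24 in WT. The 8 regions of Cited2, a transcriptional coregulator needed to maintain HSC, differed from these. They all lay 108.9 to 520.3 kb from the gene, had scores of 71.53 to 121.24, and had no MYC peak in either genotype. KO MycHet 1 had an ATAC-seq peak on 4 of them and KO MycHet 2 on 5. Their KO 2 scores were also low, 89.43 to 343.72, against 77.55 to 547.25 at Prex1.

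Zfp386 was the nearest protein-coding gene to 8 regions that lay 281.0 to 927.7 kb from it on chromosome 12. The stretch they span, 647.8 kb, contains 34 Ighv segments of the immunoglobulin heavy chain locus, which are not counted as protein-coding in the gene table. All 8 were open in both KO MycHet libraries, and none had MYC in KO or WT. At Runx1, on chromosome 16, 1 region of score 113.07 lay 18.016 kb inside the gene and 5 lay 40.7 to 325.6 kb beyond its upper end, at 92826074. The intragenic region had MYC at 81.12 in KO and 62.33 in WT and was open in all 6 ATAC-seq libraries, with scores of 571.85 and 664.73 in KO MycHet, 86.38 and 899.75 in KO, and 71.89 and 615.05 in WT. Kit, the stem cell factor receptor, had 4 regions 37.8 to 134.5 kb away with scores of 55.3 to 97.82, all open in both KO MycHet libraries and none with MYC.

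The densest groups were 4 stretches of 4 regions. The 1 in Hk1, which encodes hexokinase 1, the first enzyme of glycolysis, spanned 32.7 kb on chromosome 10 from 62288009 to 62320712. Its 4 regions had H3K27ac scores of 79.89, 64.52, 80.59 and 90.54. MYC in KO was on the last 3, with scores of 69.89, 52.72 and 260.79, and WT had no MYC peak on any. The MYC peak of 69.89 met its region only at the edge. It ended 31.821 kb from the lower end of Hk1, and the region began at 31.818 kb. The last 3 regions were open in both KO MycHet libraries, the first in neither, and none in KO 1 or WT 1. ATAC-seq scores of the 4 were 65.03, 718.34, 256.23 and 238.16 in KO 2, against 93.14, 444.78, 67.75 and 118.95 in WT 2, so the last 3 were higher in KO 2. The regions of score 79.89 and 64.52 began 19.154 and 31.818 kb from the lower end of Hk1. Their KO 2 peaks ended at 19.241 and 31.957 kb and their WT 2 peaks at 19.266 and 32.131 kb. Most of each of these peaks lay outside its region. The other groups lay at Lrrc1 (scores 53.04 to 86.43, MYC in WT on 1), between Lrrc74a and Irf2bpl (79.71 to 184.88, MYC in KO on 2 and in WT on 1), and around Cd14 (95.24 to 247.0, no MYC), which encodes the myeloid receptor for lipopolysaccharide.

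**Figure D4:**
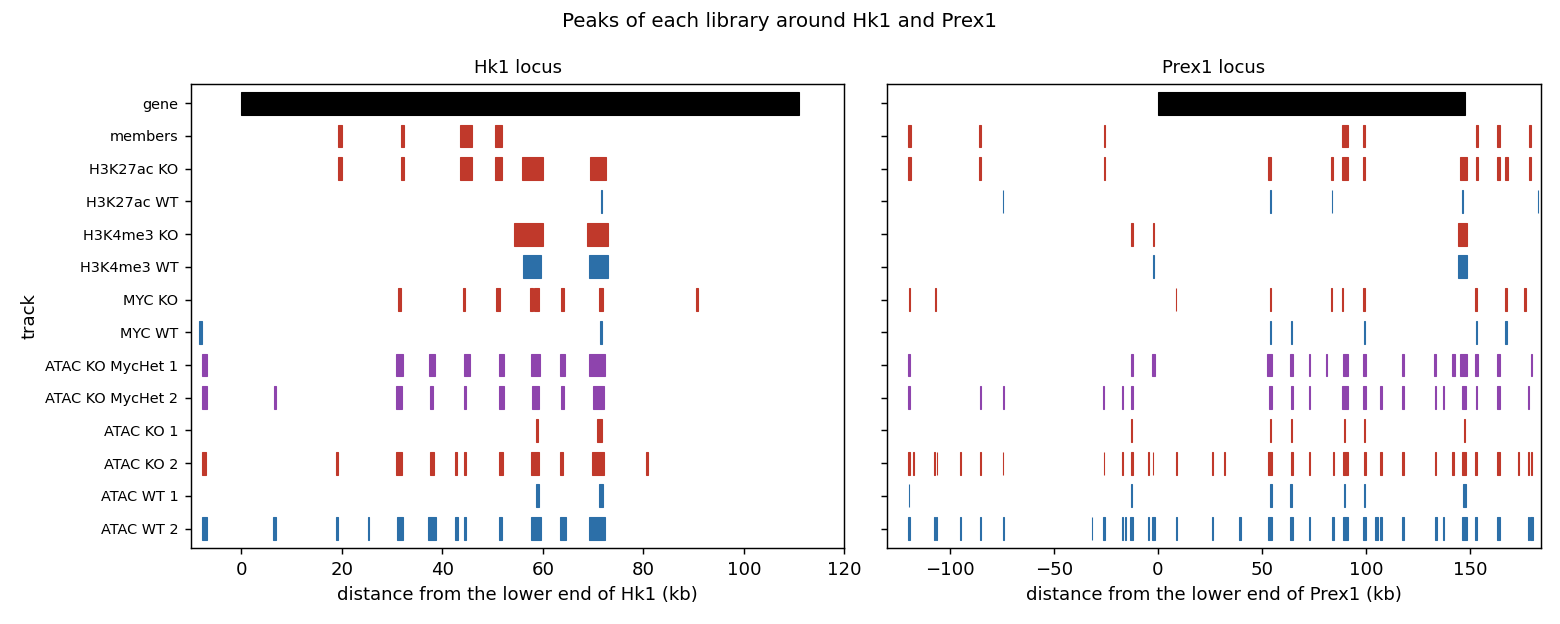
Peaks of all 12 libraries around Hk1 (left) and Prex1 (right), in kb from the lower end of each gene (black bar), with red for KO, blue for WT, purple for KO MycHet and the KO-only regions on the track named members. At Hk1 the 4 regions, 19 to 52 kb from the lower end, have KO MYC peaks on 3 and no WT MYC peak. The Hk1 region of score 64.52 meets its MYC peak only at the edge. At Prex1, 8 regions lie on both sides of and within the gene.

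To compare gene groups, the share of distal open sites nearest to a list's genes that fell in the KO-only regions was set beside the 12.9% over all such sites. It was highest for myeloid genes, with 23 of 87 sites (26.4%, 17.6 to 37.0), glycolysis, with 22 of 86 (25.6%, 16.8 to 36.1), cytokine receptors and JAK-STAT genes, with 31 of 130 (23.8%, 16.8 to 32.1), and chromatin regulators, with 39 of 183 (21.3%, 15.6 to 28.0). These were the only 4 of 22 lists whose interval lay wholly above 12.9%. The shared class held 6.90% of the myeloid sites and 10% of the cytokine and JAK-STAT sites, against 2.87% of all sites. For those 2 lists a raised share was thus not particular to the KO-only regions. It held 1.16% of the glycolysis sites and 3.28% of the chromatin regulator sites. B cell genes, with 5 of 89 (5.62%, 1.85 to 12.6), were the only list with an interval wholly below it. HSC transcription factors stood at 31 of 312 (9.94%, 6.85 to 13.8) and the MYC network at 7 of 70 (10.0%, 4.12 to 19.5). Over all listed genes it was 334 of 2081 (16.1%, 14.5 to 17.7). Sites near 1 gene are not independent, and the lists were drawn up with earlier results of these data known, so the intervals describe and do not test.

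**Figure D5:**
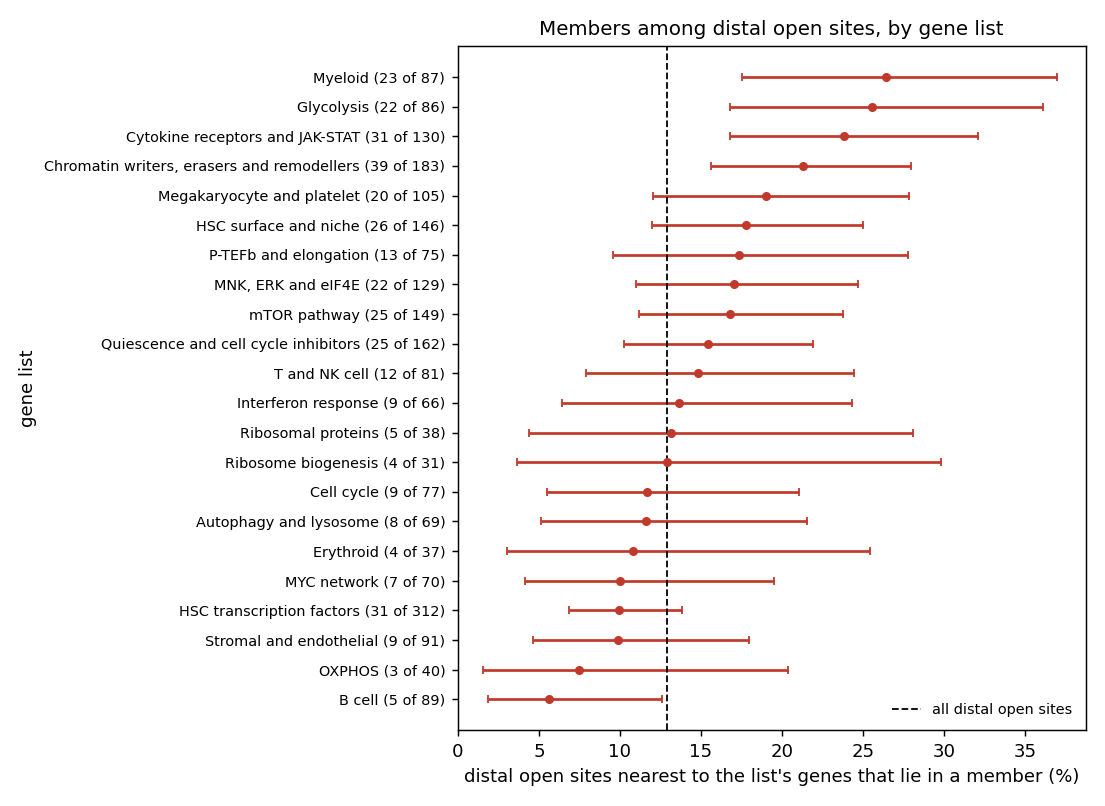
Share (%) of distal open sites nearest to the genes of each of 22 lists that lie in a region with H3K27ac in KO only, with exact 95% intervals and, in brackets, the number of such sites of all sites. The dashed line is the share over all 35624 distal open sites, 12.9%; myeloid, glycolysis, cytokine and chromatin lists lie above it.

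Among myeloid genes, 15 of 31 were nearest to at least 1 region, against 13.7% of all protein-coding genes. Itgam, the integrin alpha M chain of granulocytes and macrophages, held one of score 188.25. Cebpb, a C/EBP factor of emergency granulopoiesis, had 4, with a highest score of 147.09 at 62.9 kb. Cebpe, the C/EBP factor of late granulocytes, had 1 of score 125.42 at 3.13 kb with MYC scores of 179.74 in KO and 136.87 in WT and ATAC-seq peaks in all 6 libraries. The 22 myeloid regions had MYC on 2 in KO and 3 in WT, and 19 were open in both KO MycHet libraries. Over all 4363 regions, MYC was on 21.5% in KO and 14.5% in WT, and 79.4% were open in both KO MycHet libraries.

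Of 35 cytokine receptor and JAK-STAT genes, 19 had a region (54.3%, against 13.7% of all genes), 29 regions in all. Receptors came first by score. Csf2ra, the GM-CSF receptor alpha chain, had 1 of 233.56 at 15.5 kb, without MYC. Ifnar2, a chain of the type I interferon receptor, had 1 of 202.02 at 4.90 kb with MYC scores of 109.35 in KO and 167.75 in WT and ATAC-seq peaks in all 6 libraries. Tnfrsf1b, the TNF receptor 2, held one of 183.96 with a WT MYC peak of 57.94 and none in KO. Tgfbr2, a TGF-beta receptor chain, had 4 regions, 3 with MYC in WT and none in KO. Of the kinases, Jak1, Jak2 and Tyk2 had 1 region each, and of the inhibitors Socs1 had 1 of score 173.93, Socs3 1 of 51.7 and Cish 1 of 114.4. MYC was on 6 of the 29 in KO and 8 in WT, beside 21.5% in KO and 14.5% in WT over all 4363 regions.

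Of 26 glycolysis genes, 10 had a region (38.5%, against 13.7% of all genes), 22 in all. MYC was on 8 of the 22 in KO and 2 in WT, beside 21.5% in KO and 14.5% in WT over all 4363 regions. Hk1 accounted for 3 of the 8, 1 of them by an overlap at the edge only. Slc2a1, the glucose transporter GLUT1, held one of 262.22 within the gene, open in both KO MycHet libraries (336.41 and 434.16), KO (82.13 and 550.68) and WT (62.68 and 254.09), without MYC. Hk2, the inducible hexokinase, had 5 regions of at most 83.36, none with MYC. Pfkfb3, which makes the activator of phosphofructokinase, had 3, the highest 127.07. Pdk1, a kinase that inhibits pyruvate dehydrogenase, had 1 of 133.77 at 14.5 kb that was open in KO 2 (198.26) and WT 2 (88.67) and in neither KO MycHet library.

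Of 52 chromatin genes, 17 had a region (32.7%, against 13.7% of all genes), 36 in all. MYC was on 7 of the 36 in KO and 5 in WT, beside 21.5% in KO and 14.5% in WT over all 4363 regions. Hdac4 had 6 and the remodeller genes Chd7 and Arid1b 5 each. The highest Hdac4 region, 184.52, was open in neither KO MycHet library, and no Hdac4 or Chd7 region had MYC. Tet2, the methylcytosine dioxygenase often mutated in clonal hematopoiesis, had 2 regions of at most 125.54 and the DNA methyltransferase gene Dnmt3a had 1 of 115.12, each gene with MYC on 1 in KO and none in WT.

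HSC identity genes gave 28 regions at 16 of 44 transcription factors (36.4%) and 24 at 12 of 31 surface and niche genes (38.7%), against 13.7% of all genes. For the transcription factors the share of genes was thus above that of all genes, whereas the share of open sites, 9.94%, was below the 12.9% of all sites. By open sites, surface and niche genes stood at 26 of 146 (17.8%, 11.98 to 24.99), an interval that included the 12.9% of all sites. The shared class held 7.53% of the surface and niche sites, against 2.87% of all sites. Erg, an ETS factor of HSC maintenance, held one of 218.65 with MYC scores of 51.52 in KO and 62.27 in WT. Nr4a1, a nuclear receptor and immediate early gene, had 1 of 181.68 at 5.44 kb, with KO MYC at 57.93 and none in WT and ATAC-seq peaks in all 6 libraries. Meis1, a homeobox partner of HOX factors, held one of 156.13 and Sox4 had 1 of 154.95 at 4.34 kb, both without MYC. Gata2 and Tal1 had 1 each (107.87 and 57.13), also without MYC. Of surface genes, Itga4 had 6 (highest 138.88), Cd47 3 (130.96), Thy1 1 (136.83) and Itgb1 1 (113.71). Among quiescence genes, Cited2 had 8, Btg1 5, Fbxw7 3 and Klf6 2. MYC was on 5 of that list's 26 regions in KO and 1 in WT. Over all 4363 regions the shares were 21.5% in KO and 14.5% in WT.

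In the mTOR pathway, 12 of 39 genes (30.8%, against 13.7% of all genes) had 25 regions. By open sites the share was 25 of 149 (16.8%, 11.2 to 23.8), an interval that included the 12.9% of all sites. Rptor, the scaffold of mTOR complex 1, had 4 (highest 179.19), as did Deptor, an inhibitor of both mTOR complexes (175.28). Sesn3, a stress-induced inhibitor of mTOR complex 1, had 2 (highest 180.05). Of the MNK, ERK and eIF4E list, 15 of 34 genes had 20 regions, led by Spry2, an inhibitor of ERK signalling (279.44), Mapk3, which encodes ERK1 (152.78), Nf1 (151.76) and Mknk1, which encodes the kinase MNK1 (136.28), all 4 without MYC. Of the elongation list, 7 of 34 genes (20.6%) had 11, led by Ell2, a subunit of super elongation complexes (320.65 at 15.9 kb), without MYC. By open sites its share was 13 of 75 (17.3%, 9.57 to 27.8). The open-site intervals of the MNK and elongation lists both included the 12.9% of all sites. The MYC network had 7 regions at 4 of 20 genes, Fbxw7, Mxi1, Mlxip and Myc, and none of the 7 carried a MYC peak in KO or WT. Over all 4363 regions, 72.5% carried none in either.

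For the other lists, the counts of genes stand beside the 13.7% of all genes. A region was nearest to 8 of 36 cell cycle genes (highest Cdc6, 201.1), 5 of 40 interferon response genes (Irf2, 129.78), 5 of 34 autophagy and lysosome genes (Atg7, 193.39), 3 of 40 ribosome biogenesis genes (Rrn3, 186.72), 3 of 40 ribosomal protein genes (Rplp1, 141.14) and 3 of 39 oxidative phosphorylation genes (Sdhd, 121.4). Of lineage markers, 10 of 24 megakaryocyte genes (Thbs1, 260.17; Plek, 229.66), 7 of 34 T and NK cell genes (Notch1, 236.59), 5 of 22 stromal and endothelial genes (Col4a1, 150.59), 3 of 26 B cell genes (Bach2, 77.62) and 2 of 24 erythroid genes (Slc25a37, 139.56) had one. The part of other cell types in the regions was not tested.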

How the data were processed

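Peak lists of 12 libraries were used: H3K27ac, H3K4me3 and MYC ChIP-seq (1 KO and 1 WT library each) and ATAC-seq (2 KO MycHet, 2 KO and 2 WT). The 8 RNA-seq samples were not analysed here. Each list deposited by the authors gives, per peak, a position, a name of the form MACS writes and a score, called per library. The score is the authors' own value, its scale is not stated, and peaks were ranked and described by it. The build was mm10 and CASAVA was among the tools, per the submitters' processing notes. The aligner, caller settings and input controls are not stated in the labels or files.

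Chromosome Y was left out. Overlap meant 1 bp or more. Genes (21631 protein-coding) came from a RefSeq table of GRCm38.p6, the assembly called mm10, which gives no strand, so "lower" and "upper" name the ends by coordinate. Each region was assigned to the gene with the nearest end. Of 706 listed genes in 22 lists, 701 were matched by symbol. Shares have exact Clopper-Pearson and medians order-statistic 95% intervals. The regions, gene lists and comparisons were chosen with earlier results of these data known. Named regions are the 20 highest scores, up to 4 per list, the genes with most regions, the highest MYC scores, the highest without KO MycHet peaks and those at the distance threshold; Tgfbr2, Hk1, Hk2, Kit, Runx1, Smad3 and other genes given by count were named after their values were seen. The 300 bp motif windows planned on ATAC-seq peaks needed a genome and were replaced by RefSeq promoter windows. The overlap functions were tested on simulated intervals, and region and MYC counts (4363 and 937) were the same with bedtools 2.31.1. Python 3.11.15, numpy 2.4.6, pandas 2.3.3 and scipy 1.17.1 were used. Some regions picked by the naming rule are not reported here.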

Additional observations from a re-analysis of the deposited data

How the results depend on the processing

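Of 106 alternative values over 20 results, 65 stayed within their limits and 41 moved. Whether a result changed direction was not assessed. With as many KO as WT H3K27ac peaks (the highest-scoring KO peaks), 1331 regions remained, with MYC on 28.5% in KO and 21.6% in WT, both KO MycHet libraries open on 84.7%, KO 1 on 40.1% and WT 1 on 37.0%, a median score of 137.8 and 53.4% inside a gene. With a score of at least 100 these values were 1441, 28.2%, 21.0%, 84.0%, 39.8%, 36.4%, 133.4 and 53.7%. Regions open in all 4 KO and WT libraries numbered 781, with MYC on 38.7% in KO and 32.5% in WT, both KO MycHet libraries open on 99.4%, a median score of 94.4, 52.6% inside a gene and a median distance of 25.04 kb. Without any openness condition there were 7816, with both KO MycHet libraries open on 45.9%, KO 1 on 18.1% and WT 1 on 16.0%, a median score of 70.2, 52.8% inside a gene and a median distance of 21.9 kb. The median distance was 22.2 kb beyond 2.5 kb and 24.9 kb beyond 5 kb of a gene end, and 57.8% lay inside a gene when the ends of all annotated genes counted. Overlap of at least 50% of the shorter peak gave 78.0% open in both KO MycHet libraries and a median score of 82.9. Asked of MYC peaks alone, on the unchanged 4363 regions, that overlap left MYC on 19.99% in KO. A MYC score of at least 100 left 6.60% in KO and 4.01% in WT. Without replicate 2, using replicate 1 for openness, 783 regions were found. The share open in KO MycHet ran from 84.2% to 86.6% when 1 of the 2 libraries was left out. Removing regions with a WT H3K27ac peak within 1 kb, or widening WT peaks, moved none of the results. Counting windows that overlap a region by any amount, chosen after seeing the data, moved no motif share. The cause of these moves was not tested, beyond the choice of fewer or more regions that each alternative makes. The planned motif windows on ATAC-seq peaks were not run, for want of a genome. No paired analysis was possible because every result is a count, share or median over peak lists and comes from no test.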

Other observations

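The 421 distal open WT H3K27ac peaks without a KO peak give the mirrored values. A MYC peak lay on 24.9% in KO (95% CI 20.9 to 29.4) and 18.5% in WT (14.9 to 22.6). KO MycHet 1 and 2 were open on 79.1% and 82.4%, and KO 1 and WT 1 on 29.7% each. Their median width was 287 bp and their median WT H3K27ac score 60.4.

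The 3453 distal KO-only H3K27ac peaks not open in both replicate 2 libraries were open in both KO MycHet libraries in 122 cases (3.53%) and in neither in 3065. They lay more than 100 kb from a gene end in 18.4% of cases, against 10.9% of the open regions, and inside a gene in 49.6%, against 55.2%.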
